A study of Mus musculus with 4 samples.

Results

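The genes described here are 40 interferon-stimulated genes, genes whose transcription is switched on by interferons, measured in cultured mouse osteoblasts, the cells that form bone. They were chosen by name for their known role in interferon responses and not by a threshold on their values. Earlier results of these data were known when they were chosen, so the shares set against all genes below describe the list and do not test it. Of the 40, 29 answer mainly to type I interferon, 7 are typical of the response to interferon-gamma, and 4 belong to antigen presentation. Of the 40, 38 (95%) had a probe set that names that gene alone, among 18193 genes so named on the arrays. Isg15, the ubiquitin-like modifier that gives the response its best-known protein tag, was covered only by a probe set shared with another gene and was not analysed here, nor was Ifi44, which had no probe set of its own in the annotation used.

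The series holds 4 Affymetrix arrays, each from 1 sample of RNA: a control labelled 0 h, and cells given 10 nM insulin for 6, 12 or 24 h. All cells were grown to confluence and then deprived of serum, and all 4 samples, the control too, carry the same genotype entry. By the growth protocol the osteoblasts lacked the IGF-1 receptor, the closest relative of the insulin receptor, whereas the genotype entry names IGF-1, its ligand, as the gene that is null. An untreated array at a later time was not analysed here, so insulin and time in culture cannot be told apart. There are no replicates: every difference below is between single arrays and has no error and no test, and precision is limited by how few arrays there are.

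Interferons are secreted proteins by which cells warn one another of infection. Type I interferons (interferon-beta and the interferon-alphas) bind the receptor Ifnar1/Ifnar2, whose kinases Jak1 and Tyk2 act on Stat2. A complex that holds Stat2 and Irf9 binds a promoter sequence called the interferon-stimulated response element (ISRE) and induces antiviral genes. Interferon-gamma, made by T and NK cells, acts through Ifngr1/Ifngr2, Jak1 and Jak2 and the gamma-activated sequence (GAS) of promoters to induce guanylate-binding proteins, immunity-related GTPases, chemokines and Irf1, which in turn binds ISRE-like sequences. Many cells, those of bone included, keep a low tonic level of these genes without infection, and in bone interferons are best known for restraining the formation of osteoclasts.

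The ISRE is the sequence these genes are known for, so the promoters were read first. Of the 38 measured members, 29 had an entry in a RefSeq table of promoters of the mouse assembly GRCm38.p6, which gives 250 bases before to 50 bases after each gene's start. An ISRE-like match was counted as GAAA, any 2 bases and GAAA again, or the reverse complement with TTTC, so that both strands were read, overlapping matches included. It was present in 16 of the 29 windows (55.2%), against 1079 of the 27025 genes with a window in the table (3.99%). By class it was present in 10 of 19 type I genes, 5 of 6 interferon-gamma genes and 1 of 4 antigen presentation genes. A GAS-like match, TTCNNNGAA, which reads the same on both strands as a pattern, was present in 9 of 29 members (31.0%) against 9.55% of all genes. A match describes letters in a window and is not a binding site.

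The stretches below are those with an ISRE-like match wholly before the start that belong to the members above the brightness filter, explained below, that were farthest below their 0 h value, 5 of type I and 3 of the interferon-gamma class, together with that of B2m as the antigen presentation gene that holds one and the GAS-like stretch of Irf1. They are given 5′ to 3′ in the direction of the gene, with capitals for the matches and up to 20 bases on either side.
Trim30a, chr7:104465200-104465249, minus strand: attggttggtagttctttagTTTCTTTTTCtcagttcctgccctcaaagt
Rsad2, chr12:26456543-26456592, minus strand: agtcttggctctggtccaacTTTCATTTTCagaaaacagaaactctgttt
Ifit3, chr19:34583353-34583436, plus strand: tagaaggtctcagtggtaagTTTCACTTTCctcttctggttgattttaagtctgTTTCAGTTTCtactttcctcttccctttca
Oas1a, chr5:120907526-120907565, minus strand: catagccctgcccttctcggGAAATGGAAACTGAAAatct
Ifit1, chr19:34640765-34640833, plus strand: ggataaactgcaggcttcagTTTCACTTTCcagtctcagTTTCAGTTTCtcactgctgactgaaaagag
Cxcl10, chr5:92349073-92349122, minus strand: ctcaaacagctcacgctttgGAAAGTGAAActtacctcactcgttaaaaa
Gbp3, chr3:142559979-142560034, plus strand: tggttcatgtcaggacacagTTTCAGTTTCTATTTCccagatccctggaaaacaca
Igtp, chr11:58199502-58199551, plus strand: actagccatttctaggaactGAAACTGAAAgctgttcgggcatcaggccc
B2m, chr2:122147528-122147577, plus strand: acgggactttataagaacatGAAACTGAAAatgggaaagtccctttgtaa
Irf1 (GAS-like), chr11:53769904-53769952, plus strand: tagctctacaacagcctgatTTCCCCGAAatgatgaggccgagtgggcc
Ifit3 and Ifit1 each hold 2 separate matches, and both pairs read TTTCACTTTC and then TTTCAGTTTC. The capitals of Oas1a and of Gbp3 are 2 overlapping matches each. In Oas1a they end 5 bases before the start, and in Cxcl10 the match begins 213 bases before it.

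A gene's level is the intensity of its probe set with the highest mean log2 intensity over the 4 arrays, and levels are compared only between arrays of one gene. Genes were kept where that mean reached the median over every non-control probe set, an intensity of 66.2. That left 11661 genes, 36 of them members. Ddx60 and Mx1 fell below it through their dim insulin arrays, and Cmpk2 passed it only with its 0 h array, so values are also given for all 38 members. The control array also stood apart in sex-linked transcripts: the Y-linked gene Eif2s3y was at 12.2 on it and at 295, 305 and 326 on the insulin arrays, and Xist was at 109 against 1636, 1278 and 1463. Whatever set that array apart and the addition of insulin cannot be told apart in a difference from 0 h. The 3 insulin arrays can be compared with one another without it, and those comparisons follow the ones against 0 h.

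Most interferon-stimulated genes were brightest on the control array. Of the 36 members above the filter, 31 (86.1%) had their highest intensity at 0 h, against 42.5% of all genes. At 6 h 22 members were at least 2-fold lower than at 0 h, at 12 h 24 and at 24 h 25, where 4.62%, 5.31% and 4.82% of all genes were. At all 3 times 22 members were at least 2-fold lower, against 3.8% of all genes, and 1, Xaf1, was 2-fold higher, against 9.81% (10.6%, 11.7% and 11.1% at the single times). The median log2 difference of the members was -1.25 at 6 h, -1.31 at 12 h and -1.77 at 24 h, or -1.27, -1.35 and -1.82 over all 38, while the median of all genes stayed within 0.033 of 0. The 3 differences share the 0 h array and are not independent of one another. In RNA from a whole culture, fewer cells that carry a transcript and less of it per cell cannot be told apart.

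**Figure D1:**
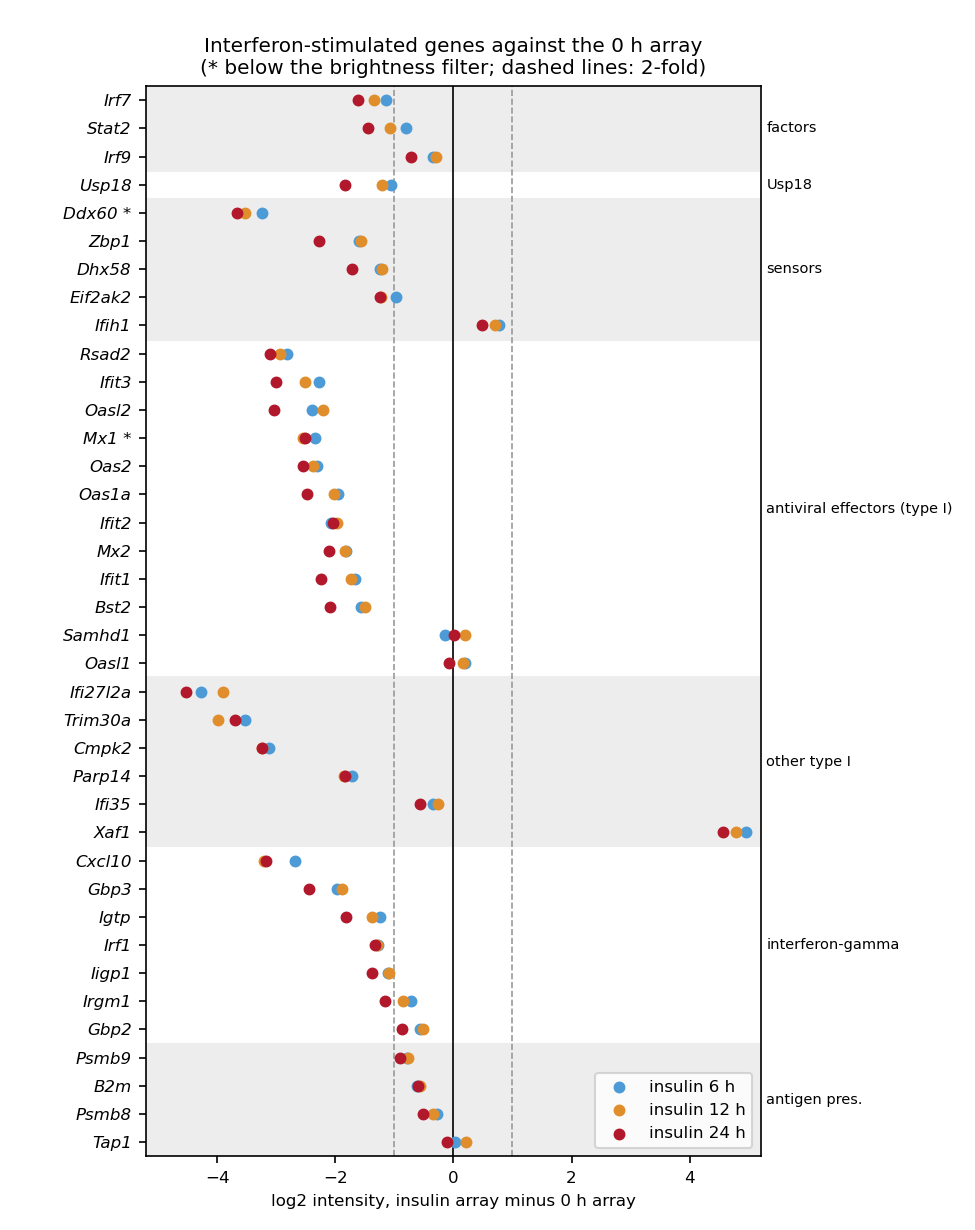
Log2 intensity of each insulin array minus the 0 h array for the 38 measured members, grouped by role, with 1 point per insulin array (6, 12 and 24 h), dashed lines at 2-fold and an asterisk for Ddx60 and Mx1, which lie below the brightness filter. Most points lie left of 0, Ifi27l2a lies at -4.27, -3.90 and -4.52, farthest left at 6 and 24 h, and Xaf1 lies at 4.96, 4.78 and 4.57.

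Among the factors that carry the type I signal, Irf7, the factor that amplifies interferon production, had intensities of 662, 301, 262 and 217 at 0, 6, 12 and 24 h. Stat2, the subunit that gives the complex its transactivating arm, had 683, 391, 324 and 250, and a second Stat2 probe set had 348, 272, 240 and 196. Both genes descended from array to array, and Irf7 was 2.20, 2.53 and 3.05-fold lower than at 0 h, Stat2 1.75, 2.11 and 2.73-fold. Irf9, the DNA-binding subunit, differed less, with 844, 665, 686 and 515, which is 1.27, 1.23 and 1.64-fold lower. Usp18, the protease that removes Isg15 from proteins and blocks the interferon receptor, had 2488, 1195, 1077 and 701, or 2.08, 2.31 and 3.55-fold lower. Thus Irf7 and Usp18 were past 2-fold at all 3 times, Stat2 at the last 2, and Irf9 at none.

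The sensors of foreign nucleic acid did not move as one. Zbp1, a sensor of left-handed nucleic acid, had 454, 150, 153 and 93.5, so that it was 3.03, 2.96 and 4.85-fold lower than at 0 h. Dhx58, which tunes the RNA sensors of the RIG-I family, had 490, 206, 211 and 149, and Eif2ak2, the kinase that stops translation when it meets double-stranded RNA, had 1222, 624, 520 and 514. All 3 Eif2ak2 probe sets were lower on every insulin array. Ifih1, the sensor Mda5, went the other way, with 289 at 0 h and 494, 471 and 403 on the insulin arrays, 1.71, 1.63 and 1.40-fold higher and without reaching 2-fold. Ddx60, a helicase of the same response, had 289 at 0 h and then 30.5, 24.9 and 22.7, below the filter, so its fold rests on dim values.

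Antiviral effectors, the proteins that block viral replication directly, were the largest group of type I genes. Of the 11 above the filter, 9 were at least 2-fold lower at all 3 times, against 3.8% of all genes. Rsad2 (viperin), which makes a nucleotide that ends viral RNA chains, had 900.5, 128, 118 and 104, and was 7.03, 7.63 and 8.64-fold lower. Ifit3, one of the proteins that bind viral RNA ends, had 6924, 1437, 1205 and 863, and was 4.82, 5.75 and 8.03-fold lower. Ifit1 had 4467, 1404, 1342 and 946, and its neighbour Ifit2 had 654, 156, 167 and 160. All 3 Ifit genes were far below 0 h by 6 h, but the 24 h array was the lowest for Ifit1 and Ifit3 only.

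The 2′-5′-oligoadenylate synthetases, which activate the RNA-degrading enzyme RNase L, and their relatives split. Oas1a had 2391, 619, 589 and 431, Oas2 had 568, 115, 110 and 97.5, and Oasl2 had 2599, 491, 567 and 319. These 3 were 5.55, 5.83 and 8.15-fold lower at 24 h than at 0 h. Oasl1, a relative without synthetase activity that represses Irf7 translation, had 73.7, 84.8, 82.4 and 70.0, close to the filter, and each insulin array lay within 1.15-fold of 0 h. Mx2, a dynamin-like GTPase, had 340, 96.8, 96.0 and 79.1, and its relative Mx1 had 132, 26.1, 22.5 and 22.97, below the filter on each insulin array. Bst2 (tetherin), which holds budding virus at the cell surface, had 6266, 2128, 2226 and 1475, or 2.95, 2.82 and 4.25-fold lower. Samhd1, which depletes nucleotides, had 528, 477, 607 and 534. Its 5 probe sets above the filter lay between 1.20-fold below and 1.24-fold above 0 h and in both directions, so no direction is given for it.

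Among the other type I genes, Ifi27l2a, a small hydrophobic protein and on average over the insulin arrays the member farthest below 0 h, had 9956 at 0 h and 517, 669 and 434 on the insulin arrays. Trim30a, a dampener of Toll-like receptor signalling, had 1344, 117, 85.2 and 104, and its second probe set had 1077, 55.5, 77.0 and 66.3. Cmpk2, a mitochondrial nucleotide kinase whose gene lies beside Rsad2, had 591, 68.1, 62.4 and 62.3, so that it was 8.67, 9.47 and 9.48-fold lower, on insulin values at the filter. In all 3 genes each insulin array lay far under the control, and the insulin arrays were much closer to one another than to it. Parp14, an ADP-ribosyltransferase, had 613, 186, 169 and 171. Ifi35, a cytosolic protein bound by Nmi, was only 1.27, 1.20 and 1.49-fold lower, with 6495, 5119, 5420 and 4366.

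Xaf1, which favours cell death, gave opposite readings from its probe sets. The brighter one on average had 104 at 0 h and 3250, 2858 and 2465 on the insulin arrays, 31.2, 27.5 and 23.7-fold higher. The other had 3320 at 0 h and 82.2, 60.4 and 70.2 on the insulin arrays. Which of them reports the Xaf1 transcript was not tested, so the single member counted as higher than 0 h rests on the choice of probe set, and with the other one no member was higher by 2-fold. Across the array, opposite probe sets past 2-fold at all times were found in 4 of 5096 genes with several probe sets above the filter (0.0785%), and the gap was widest for Xaf1. Among the 11 members with several probe sets above the filter, Xaf1 and Samhd1 were the 2 whose probe sets disagreed in direction.

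**Figure D2:**
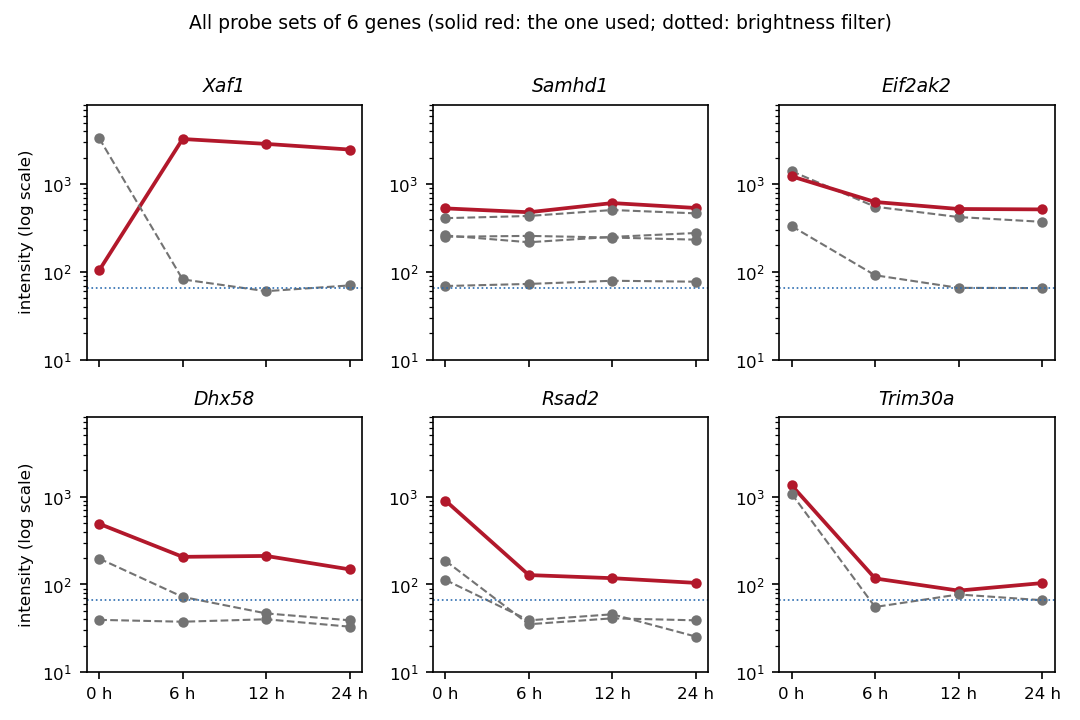
Intensity on a log scale of every probe set of 6 members on the 4 arrays (0 h control, then insulin 6, 12 and 24 h), with the probe set used as a solid red line, others as dashed grey lines and the brightness filter (66.2) as a dotted line. The Xaf1 probe sets cross between 0 and 6 h, those of Samhd1 are nearly level, and the bright probe sets of Eif2ak2, Dhx58, Rsad2 and Trim30a descend from 0 h.

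All 7 interferon-gamma genes were lower than at 0 h on every insulin array. Of these, 5 were at least 2-fold lower at all 3 times, against 3.8% of all genes. Cxcl10, a chemokine that draws in T cells, had 1071, 168, 116 and 119, or 6.39, 9.27 and 9.03-fold lower. The guanylate-binding protein gene Gbp3 had 1432, 365, 387 and 262, while Gbp2 had 1221, 828, 858 and 670 and stayed under 2-fold. A second Gbp2 probe set had 1071, 596, 577.5 and 455, and was 2.35-fold lower at 24 h. Of the immunity-related GTPases, which act at the vacuoles of intracellular parasites, Igtp had 1091, 459.5, 424 and 311, Iigp1 had 1112, 520, 523 and 428, and Irgm1 had 1893, 1153, 1047 and 853. Igtp and Iigp1 were past 2-fold at every time, and Irgm1 only at 24 h, at 2.22-fold. Irf1, the factor whose GAS-like stretch is printed above, had 1361 at 0 h and a nearly level 559, 558 and 540 after insulin, 2.44, 2.44 and 2.52-fold lower.

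The antigen presentation members lay closest to their 0 h values, and none of the 4 was 2-fold lower at any time. Of all genes, 4.62% were at least 2-fold lower at 6 h, 5.31% at 12 h and 4.82% at 24 h. With 4 genes a count of none is close to these shares. B2m, the light chain of MHC class I, had 21018, 13662, 14289 and 13896, or 1.54, 1.47 and 1.51-fold lower, and its second probe set had 19336, 12167, 12541 and 11488. Of the immunoproteasome subunits that cut peptides for presentation, Psmb9 was 1.73, 1.71 and 1.86-fold lower, with 345, 199, 202 and 185, and Psmb8 1.20, 1.26 and 1.43-fold, with 473, 393, 374.5 and 330. Tap1, which carries the peptides into the endoplasmic reticulum, had 640, 650, 738 and 598 and so lay on both sides of its 0 h value.

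Set side by side, the class medians of the log2 difference from 0 h, averaged over the insulin arrays, were -1.81 for 25 type I genes, -1.30 for the 7 interferon-gamma genes and -0.48 for the 4 antigen presentation genes. At the single times they were -1.60, -1.57 and -2.03 for type I, -1.25, -1.29 and -1.38 for interferon-gamma, and -0.44, -0.45 and -0.56 for antigen presentation. As means over genes the first 2 classes changed places, with type I at -1.47 and interferon-gamma at -1.52, and this rests on Xaf1. The type I mean was -1.73 with Xaf1 left out and -1.88 with its other probe set, both chosen after seeing the data. Antigen presentation was nearest 0 either way. Type I members ranged from -4.23 (Ifi27l2a) to 0.65 (Ifih1) apart from Xaf1, so the classes overlap widely.

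Members with an ISRE-like match in the window read here lay lower than members without one, with medians of -1.71 over 15 genes and -0.45 over 13 genes above the filter. The genes without a match include Xaf1, by its probe set that was higher than at 0 h, and all but 1 of the 4 antigen presentation genes. The gap between these medians therefore depends in part on the Xaf1 probe set and overlaps with the class difference. Over the kept genes at large the medians were close. The 309 other kept genes with a match had a median of -0.02, against 0.02 for all kept genes without one, members included. Of the 309, 21 (6.80%) were at least 2-fold lower at all 3 times, against 3.40% of those without. Only the members were taken out of the 309, and interferon-stimulated genes on the other lists were not. The GAS-like match separated the members less, with medians of -1.30 over 9 genes and -1.11 over 19.

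The change among the insulin arrays leaves the 0 h array out. Between 6 and 12 h the members differed little as a group, with a median of -0.05 against 0.03 for all genes. Of the 36, 21 were lower and 15 higher, where 42.7% of all genes were lower, and none of the 39 genes that were at least 1.5-fold lower (0.334% of all genes) was a member. At 24 h most of them were lower: 33 of 36 were below 6 h, where 50.7% of all genes were, with a median of -0.29 against -0.002 for all genes. Against 12 h also 33 of 36 were lower, where 58.4% of all genes were, with a median of -0.28 against -0.03 for all genes. On 30 of 36 (83.3%) the 24 h array was the lowest of the 3 insulin arrays, against 36.7% of all genes. The shift is small for most members, and the spread between repeated 24 h cultures is not known. These differences share the 24 h array and are not independent of one another.

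**Figure D3:**
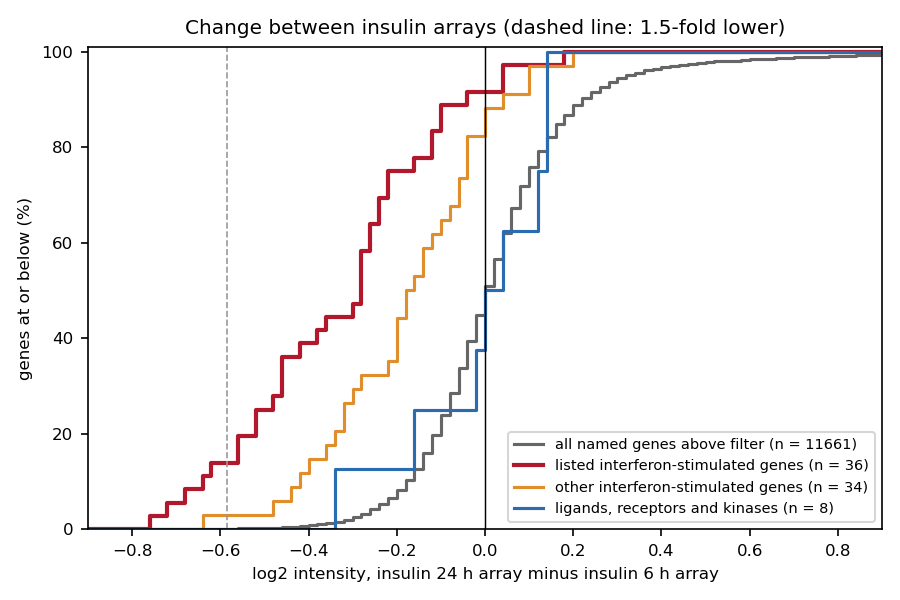
Cumulative share of genes (%) by the log2 intensity of the insulin 24 h array minus the insulin 6 h array, for all named genes above the filter, the 36 members, 34 other interferon-stimulated genes and 8 ligands, receptors and kinases, with a dashed line at 1.5-fold lower. The curve of all genes passes its middle at 0 (median -0.002), whereas that of the 36 members is shifted left, with a median of -0.29.

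Few genes of any kind were 1.5-fold lower at 24 h than at 6 h, and several of them were members. There were 14 such genes (0.12%), and 5 were members: Usp18 (1.70-fold), Ifit3 (1.67-fold), Zbp1 (1.60-fold), Stat2 (1.56-fold) and Oasl2 (1.54-fold). Usp18 had the lowest log2 difference of all 11661 genes, -0.77. Rtp4, an interferon-induced chaperone of receptors, was among the 14 as well, going from 2166 at 6 h to 1389 at 24 h. Against 12 h, 12 genes (0.103%) were 1.5-fold lower at 24 h, and 5 were members: Oasl2 (1.78-fold), Zbp1 (1.64-fold), Ifi27l2a (1.54-fold), Usp18 (1.54-fold) and Bst2 (1.51-fold). Usp18, Zbp1 and Oasl2 stand in both lists.

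Members far below 0 h were not always those that differed among the insulin arrays. Cmpk2 and Parp14, 9.48-fold and 3.59-fold lower than at 0 h at 24 h, differed by only 1.09-fold between 6 and 24 h. Ifit2 was 1.02-fold higher at 24 h than at 6 h, beside 1.49-fold and 1.67-fold lower for Ifit1 and Ifit3. In the interferon-gamma class all 7 genes were lower at 24 h than at 6 h, with a median of -0.43, and Igtp (1.48-fold) and Irf1 (1.03-fold) mark its ends. The medians were -0.30 for type I and -0.11 for antigen presentation. Ifih1 and the brighter Xaf1 probe set, which were above 0 h, also came down from 6 to 24 h, by 1.23-fold and 1.32-fold.

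**Figure D4:**
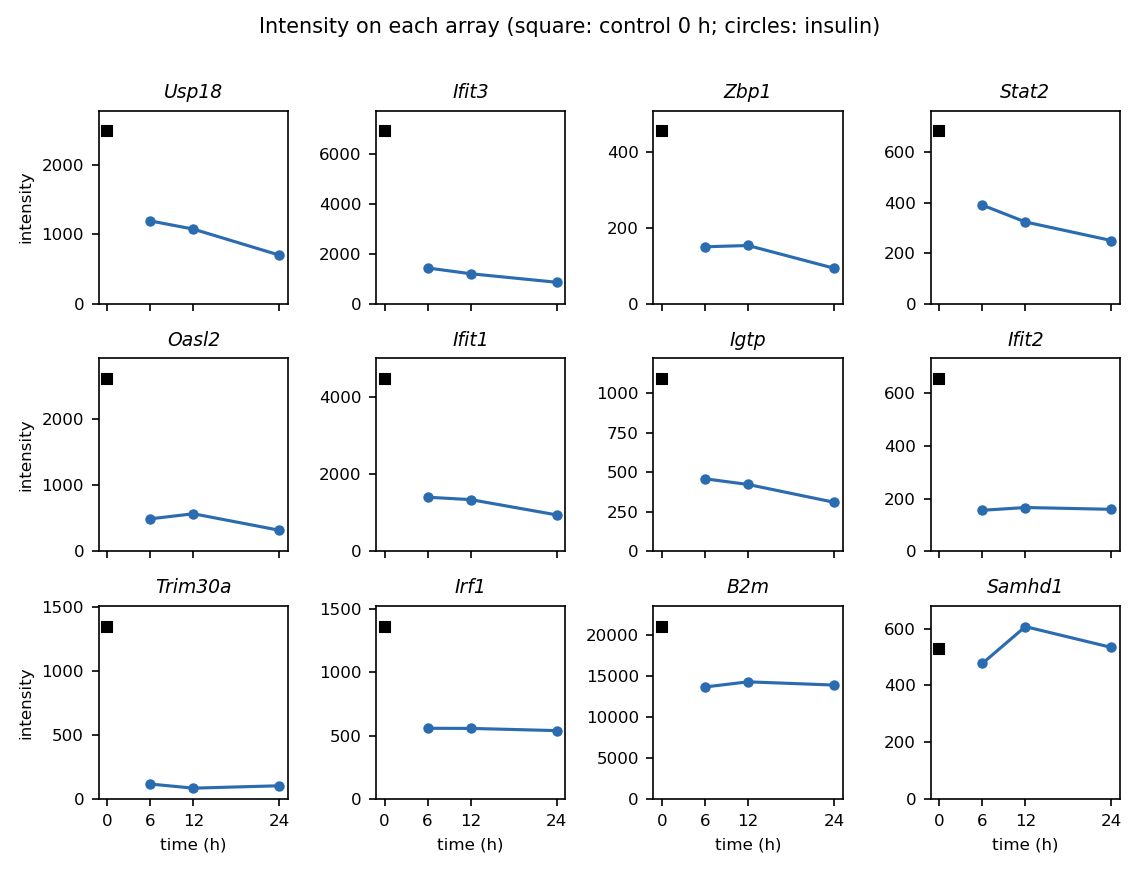
Intensity on a linear scale that starts at 0 for 12 members on the 4 arrays, with a square for the control at 0 h and joined circles for insulin at 6, 12 and 24 h, 1 array each. Usp18, Ifit3, Zbp1, Stat2 and Oasl2 are lower at 24 h than at 6 h, Irf1 and B2m are nearly level after 6 h, and Samhd1 shows no step from 0 h.

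The genes upstream of the members were for the most part near their 0 h values. Of 13 ligands, receptors and kinases, 8 passed the filter, and their median was 0.11. None of the 8 was 2-fold from 0 h at all times, where 3.8% of all genes were lower and 9.81% higher. With 8 genes that count is close to these shares. Ifnb1, the gene for interferon-beta, had 61.0, 38.2, 36.5 and 35.6, under the filter on every array, and Ifng had 12.0, 11.9, 10.8 and 11.5. The 3 interferon-alpha genes measured were below the filter by their means too, so ligand levels were not followed here. Of these, Ifna1 was just above the filter value at 0 and 6 h, with 75.6, 67.75, 58.2 and 58.9. The receptor gene Ifnar1 had 577, 501, 524 and 447 and Ifnar2 had 980, 966, 1106 and 1062. Ifngr1 had 291.5, 320, 307 and 325, and Ifngr2 had 357, 496, 408 and 391.

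The kinase gene Jak2 had 589, 621, 647 and 672. Jak1 was higher after insulin, with 1393, 2490, 2459 and 2466, although the dimmest of its 3 probe sets was lower at 12 and 24 h. Tyk2 had 233, 244, 245 and 266, and its second probe set, with 190, 115, 130 and 116, pointed the other way. Of 15 listed STATs, interferon regulatory factors and inhibitors, 12 were above the filter, with a median of 0.09. None of the 12 was 2-fold from 0 h at all times, where 3.8% of all genes were lower and 9.81% higher. With 12 genes that count too is close to these shares. Stat3, which serves interleukin-6 type cytokines, was 1.71, 1.68 and 1.82-fold higher (1217, 2075, 2037 and 2215), and Socs1, the feedback inhibitor of the kinases, had 106, 70.8, 73.1 and 72.2.

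Sensors that lie upstream of interferon production were close to 0 h as a list, with a median of -0.20 over 15 genes. Of these, 2 were at least 2-fold lower at all times, where 3.8% of all genes were. Tlr3, the endosomal receptor for double-stranded RNA, had 634, 188, 209 and 200. Trim25, the ubiquitin ligase of RIG-I, had 2732, 927, 884 and 755, and its 3 probe sets were lower on every insulin array. Both Tlr3 and Trim25 are themselves induced by interferon.

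The MHC class I heavy chains were lower by more than the antigen presentation members. Of 12 further genes of that pathway above the filter, 5 were at least 2-fold lower at all times, against 3.8% of all genes, and none higher. Their median was -1.07. H2-K1 had 12978, 3086, 3396 and 3280, 4.21, 3.82 and 3.96-fold lower, beside 1.54, 1.47 and 1.51-fold for B2m, the chain that pairs with it. H2-D1 was 3.24, 3.16 and 3.39-fold lower (15434, 4771, 4887 and 4557), though its dimmest probe set above the filter was slightly higher than at 0 h. Its other probe sets above the filter were lower at all times. The largest difference was in a probe set with 2042, 233, 253 and 182, or 8.77, 8.08 and 11.2-fold lower. H2-M3 had 875, 200.5, 218 and 206, the third immunoproteasome subunit Psmb10 had 1789, 656, 591 and 546, and Nlrc5, the transactivator of class I genes, had 161, 78.8, 74.95 and 64.1. The heavy chain genes are alike in sequence, so their probe sets can take up one another's transcripts.

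A list of 49 further interferon-stimulated genes had the same direction with a smaller median, -0.79 over 34 genes above the filter. Of these 11 were at least 2-fold lower at all times and 1 higher, against 3.8% and 9.81% of all genes. Gbp6 (1349, 190.5, 195 and 183.5) and Gbp7 (1124, 247, 202 and 199.5), both guanylate-binding proteins, were several-fold lower after insulin, as was Ifi47, an immunity-related GTPase (1317, 271, 265 and 205). The chemokine gene Ccl5 had 539, 152, 138 and 132, and the DNA-binding Ifi204 had 481, 154, 166 and 164. Ifitm1, a membrane protein that blocks virus entry and is also made in many cells without interferon, was the exception, 5.64, 6.32 and 6.42-fold higher (75.7, 427, 479 and 486). Between 6 and 24 h, 30 of the 34 were lower, where 50.7% of all genes were, with a median of -0.19.

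**Figure D5:**
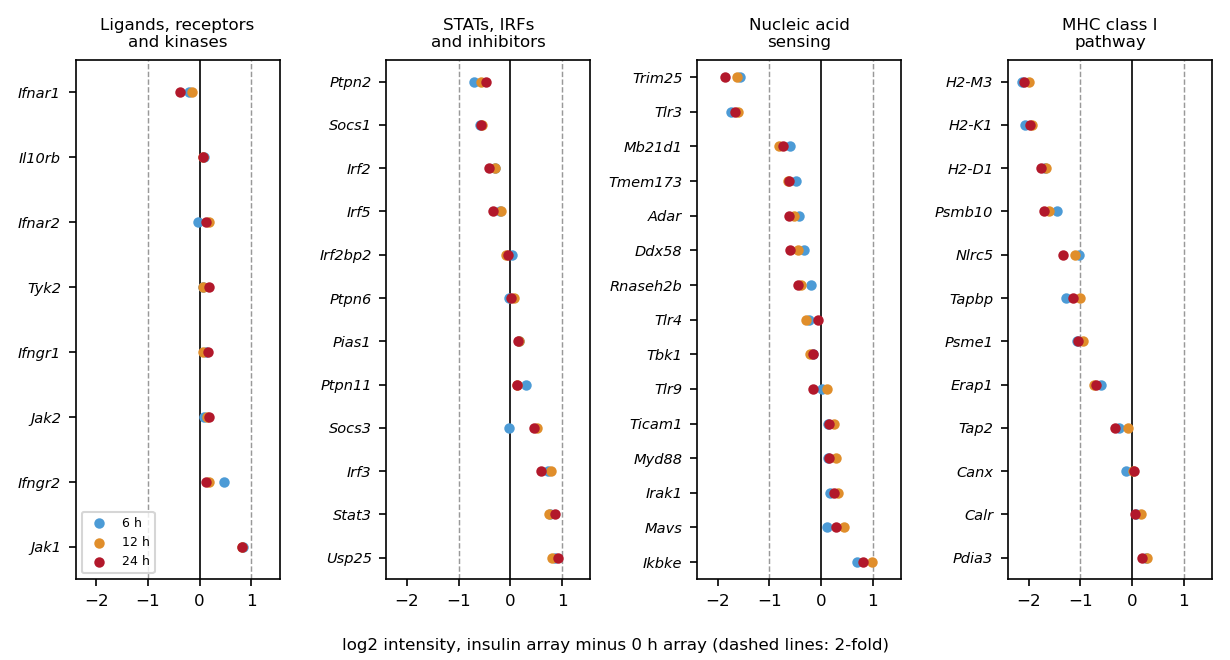
Log2 intensity of each insulin array (6, 12 and 24 h) minus the 0 h array for interferon pathway genes outside the members that passed the brightness filter, in 4 panels by role, with dashed lines at 2-fold. Ligands, receptors and kinases (median 0.11) and STATs, interferon regulatory factors and inhibitors (median 0.09) lie around 0, whereas the MHC class I pathway (median -1.07) lies mostly to the left.

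Markers of cell types differed from 0 h as well. All 8 osteoblast markers above the filter were higher after insulin by the probe set used. Of these, 4 were 2-fold higher at all times, against 9.81% of all genes, among them Ibsp (202, 8849, 11705 and 13147). Of the genes that define osteoblasts, the collagen gene Col1a1 had 13802, 21001, 23827 and 23754, but its second probe set pointed the other way, with 3149, 1507, 1825 and 1905, as did the dimmest one of Sparc. On the control array Alpl (61.5) and Sp7 (60.8) were below the filter, and they were above it on every insulin array. Of 12 macrophage markers 9 passed the filter, and 8 of those were at least 2-fold higher at all times, against 9.81% of all genes. The exception was Cd14 (370, 155, 153 and 162). The list medians were 2.30, 2.72 and 2.88, and Lyz2 had 248, 3565, 4354 and 4914. Of the 4 Laptm5 probe sets above the filter, 1 pointed the other way (107, 83.8, 76.8 and 85.9). Of the 3 macrophage markers that failed the filter, the integrin Itgam stayed below it on every array, at 20.3, 21.3, 26.6 and 26.2. Aif1 did as well, at 47.2, 50.9, 62.2 and 60.9. Ptprc had 19.05, 66.06, 106.9 and 123.2 and was above the filter value at 12 and 24 h. Between 6 and 24 h the macrophage median was 0.56, opposite in direction to the members. Markers of T and NK cells, the cells that make interferon-gamma, were dim: 6 of 9 were below the filter. None of the other 3 was 2-fold from 0 h, where 3.8% of all genes were lower and 9.81% higher at all times. None of the 4 B cell and plasmacytoid dendritic cell markers passed the filter. Of 6 endothelial markers 1 passed. Of 3 adipocyte markers 2 were 2-fold higher at all times, against 9.81% of all genes, Adipoq with 23.4, 511, 885 and 1141. The remaining adipocyte marker was lower than at 0 h on every insulin array, with log2 differences of -1.06, -0.27 and -0.18. The part of these cell types in the members' differences was not tested.

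The members lie on 14 chromosomes, whose medians over all kept genes for the mean of the insulin arrays minus 0 h ranged from -0.24 to 0.21. For the 24 h minus 6 h difference the same medians ranged from -0.02 to 0.01, well inside the -0.29 of the members.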

How the data were processed

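RNA was labelled by in vitro transcription from its 3′ end, per the labels' protocols. The deposited table holds an intensity for every probe set on every array, on a linear scale (7.34 to 31292), and the submitters' processing notes name RMA. Software and genome build were not given in the sources used here. RMA compresses differences of dim probe sets. Array medians lay between 64.97 and 65.75, and log2 was taken before differences.

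Of 45101 probe sets, 64 were controls, 34945 named 1 gene in the platform annotation, 932 several and 9160 none here. All 40 members are named. Of 113 further pathway genes on 5 lists, ligands, receptors, kinases, Stat3 and Socs1 were named always, and otherwise up to 6 a list that were 2-fold from 0 h in one direction on all 3 insulin arrays, with the largest mean difference. One item that this rule names is not reported here. Rtp4 was named after its values were seen, as were the examples from 6 marker lists. The members and lists were chosen with earlier results of these data known. With 1 array per group no test was made. Alternatives were other thresholds, brightness filters, normalizations, probe set rules, an added constant, means for medians and chromosome medians removed. The counting scripts were tested on simulated data. Python 3.11.15, numpy 2.4.6, pandas 2.3.3 and matplotlib 3.10.9 were used.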

Additional observations from a re-analysis of the deposited data

How the results depend on the processing

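Over 23 summary values and 222 alternatives, 1 sign turned: the median of the ligands, receptors and kinases went from 0.11 to -0.005 with chromosome medians removed. In all, 196 values moved by less than 0.144 log2 or, for counts, by at most 1.5 times, and 26 moved by more. The 0.144 is the spread of the 24 h minus 12 h differences over genes. With the brightness filter at the 75th percentile, which removes dim members, the medians against 0 h were -1.01, -1.15 and -1.36 at 6, 12 and 24 h, the counts of 2-fold lower members 12, 14 and 15, the type I median -1.36, and 13 members were lower at 12 h than at 6 h. With the mean of all probe sets, or with Xaf1 by its other probe set (chosen after seeing the data), 0 members were 2-fold higher at each time, and the mean of all probe sets gave class medians of -1.66 for type I and -0.64 for antigen presentation. At 1.5-fold 2 members were higher at 6 h and 2 at 12 h, and at 3-fold 14 were lower at 12 h. With 32 intensity units added the 24 h median was -1.60 and the type I median -1.61. As means over genes the 24 h value was -1.57, type I -1.47 and interferon-gamma -1.52. Without probe sets whose names carry a suffix the type I median was -1.55, and without a brightness filter the list of further interferon-stimulated genes had -0.60. For the moved values the cause was not tested beyond the construction of each alternative. No paired analysis was possible because each group holds 1 array and all are labelled as replicate 1. Signal over background limits what can be said of Ddx60, Mx1, Cmpk2 and the interferon genes.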

Other observations

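Outside the members, 3 genes had probe sets above the filter that lay at least 2-fold from 0 h in opposite directions at all 3 times. They were chosen after the data were seen, to set the Xaf1 readings in context. For Riok3, a kinase gene, 1 probe set had 836.5, 1750, 1815 and 1730 at 0, 6, 12 and 24 h and another had 786, 197.5, 217 and 210. For Tug1, a long noncoding RNA, 1 had 200.5, 437, 412 and 438 and another 1784, 725, 490 and 398. For Ptp4a2, a phosphatase gene, 1 had 1766, 3798, 3919 and 4121 and another 5868, 2266, 1761 and 1638. The gap between opposite probe sets was 3.00, 2.87 and 2.81 log2 units in these genes and 10.33 in Xaf1.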
